A study of Mus musculus with 59 samples.

Results

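The Hox genes of the mouse encode homeodomain transcription factors and lie in 4 clusters, A to D. All genes whose symbol is Hox followed by the letter of a cluster and a number were taken, which gave 39 of the 19613 genes measured. They comprised 11 genes of cluster A, 10 of cluster B, 9 of cluster C and 9 of cluster D. Genes of different clusters with the same number descend from one ancestral gene and are called paralogues. In the embryo, genes with low numbers are active in the hindbrain and neck region and those with high numbers progressively further towards the tail, and in the spinal cord their combination sets the column and pool identity of motor neurons. Retinoic acid activates the low-numbered genes and gives neural cells a hindbrain or cervical character.

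The cells were embryoid bodies that contained spinal motor neurons, differentiated with retinoic acid and a hedgehog agonist from HGB3 mouse embryonic stem cells, a line with an HB9-eGFP reporter of motor neurons. They were exposed for 24 h to serum from pre-symptomatic male mice hemizygous for a mutant human SOD1 transgene (carrier serum, 29 arrays) or from non-carrier littermates (30 arrays), all F1 progeny of C57BL/6 and SJL. RNA was measured on exon arrays. The labels name no batch, so the titles were used to divide the arrays into 9 runs, named motorneuron, HB9MNs, A to F and 10-week. The labels name 9 weeks for 53 arrays and 10 weeks for the 6 arrays of the 10-week run, without saying what the weeks refer to. The age of the serum donors that the authors state in days is close to these 9 to 10 weeks. The run and the weeks named for these 6 arrays cannot be told apart, and run C, with 11 arrays, holds more than 1 batch.

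The identity of the cultures was checked with marker genes. Of the 7 motor neuron markers measured, 7 lay above the range of silent genes described below. So did 6 of 6 progenitor, 5 of 5 neuronal, 9 of 10 interneuron and 4 of 6 glial markers. In the remaining lists 3 of 9 pluripotency, 4 of 8 mesoderm and endoderm and 0 of 4 endothelial and blood markers did. Over all genes the share was 66.7%, and a count near it does not show that a cell type was present. Embryoid bodies are mixed cultures, and in such bulk RNA fewer cells of a type and less RNA per cell cannot be told apart. The median intensity of an array was 151 to 183 with carrier serum and 153 to 177 with non-carrier serum. No 2 arrays held identical values. Nothing in the labels states that each array had serum of a different mouse, so p-values measure the spread between these arrays.

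The sequences upstream of paralogue group 4 are shown because 3 of its 4 genes had lower intensity with carrier serum at an unadjusted p under 0.05. RefSeq promoter windows on GRCm38.p6 were at hand for 22 of the 39 Hox genes. The 250 bases before the annotated start were searched on both strands for AGGTCA, the half-site bound by retinoic acid receptors, which 6 of these 22 genes held (Hoxb4, Hoxc4, Hoxd3, Hoxd4, Hoxd8 and Hoxd10). The same letters were present in 14.02% of all 32851 windows, a share counted by window, whereas the Hox count is by gene. The windows of Hoxb4 (chr11:96318017-96318266, plus strand), Hoxc4 (chr15:103034145-103034394, plus strand) and Hoxd4 (chr2:74721728-74721977, plus strand) each held 1 match, in capitals, in the reverse orientation, beginning 81, 146 and 145 bases before the start. A match of letters is a description and not a binding site.
Hoxb4: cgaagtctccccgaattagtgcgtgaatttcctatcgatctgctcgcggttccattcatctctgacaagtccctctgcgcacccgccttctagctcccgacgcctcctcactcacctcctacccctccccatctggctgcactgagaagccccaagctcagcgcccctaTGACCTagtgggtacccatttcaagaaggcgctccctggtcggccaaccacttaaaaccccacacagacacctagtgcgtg
Hoxc4: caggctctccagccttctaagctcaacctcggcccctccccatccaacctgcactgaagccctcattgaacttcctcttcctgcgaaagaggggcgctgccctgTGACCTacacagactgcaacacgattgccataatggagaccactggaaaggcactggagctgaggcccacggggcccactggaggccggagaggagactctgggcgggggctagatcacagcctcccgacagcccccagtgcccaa
Hoxd4: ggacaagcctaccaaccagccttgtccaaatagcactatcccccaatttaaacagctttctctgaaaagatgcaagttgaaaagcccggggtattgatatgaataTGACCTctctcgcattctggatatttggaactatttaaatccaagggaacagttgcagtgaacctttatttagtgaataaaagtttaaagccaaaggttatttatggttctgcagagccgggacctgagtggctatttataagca

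Low-numbered genes of every cluster gave clear signals and high-numbered ones did not, with Hoxb9 standing out among the latter. As a scale, the 1021 olfactory receptor genes, which are largely silent outside the nose, had a median log2 intensity of 4.54 and a 95th percentile of 6.31. Above this percentile lay 25 of 39 Hox genes (64.1%) and 66.7% of all genes. Intensities of different genes depend on their probes, so the order among Hox genes is not an order of RNA amounts. Of the 23 genes with numbers 1 to 8, 22 were above the mark, the exception being Hoxc8 at 6.05. Hoxd8, at 6.34, was only slightly above it. Of the 16 genes with numbers 9 to 13, 3 were above it, and these were Hoxb9 at 9.12, Hoxa10 at 6.49 and Hoxd11 at 6.32. By cluster the counts were 8 of 11 in A, 9 of 10 in B, 3 of 9 in C and 5 of 9 in D.

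**Figure D1:**
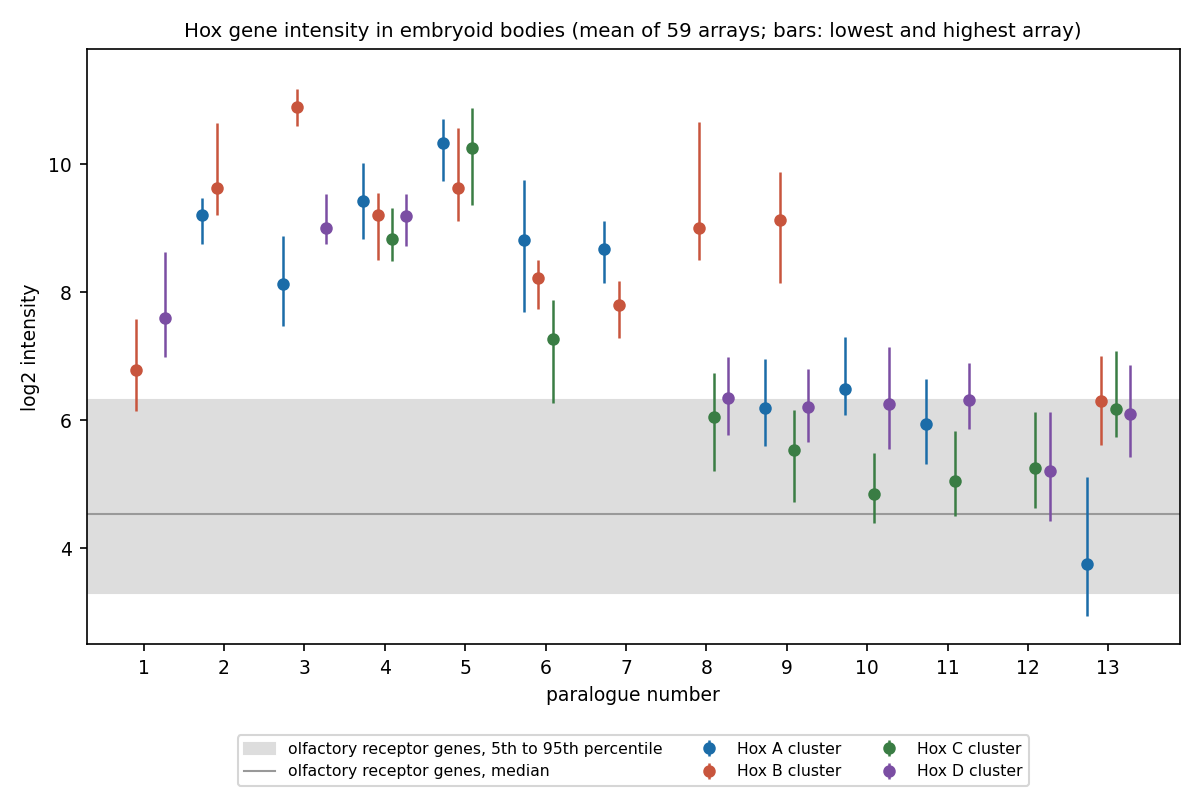
Log2 intensity of 38 of the 39 Hox genes (points, mean of 59 arrays; bars, lowest and highest array) against paralogue number, coloured by cluster, with the range of olfactory receptor genes in grey. Genes numbered 1 to 7 lie above the grey band on average, whereas from number 9 on Hoxb9 at 9.12 stands well above it.

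The paralogue group 9 shows this contrast within genes of one descent. Hoxb9, which in the embryo marks brachial to thoracic levels, had 284 to 939 over all arrays on the linear intensity scale. Hoxa9 ranged from 48.7 to 124.1, Hoxd9 from 50.8 to 112.2 and Hoxc9, a determinant of thoracic motor neurons, from 26.5 to 71.9. The mean log2 intensities of these 3 genes, 6.19, 6.21 and 5.54, were within the range of the olfactory receptors. At the caudal end, Hoxa13, which patterns limb and hindgut, had a mean log2 intensity of 3.75, exceeding that of 16.4% of the olfactory receptor genes.

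With carrier serum 2 Hox genes, Hoxb9 and Hoxd4, were lower and 0 higher past the threshold of 0.05 on limma's adjusted p. Over all genes, 1.65% were called lower and 0.683% higher. Hoxb9 intensity with carrier serum had a lowest value of 284, a median of 505 and a highest value of 707, and with non-carrier serum 455, 634 and 939. The 2 groups overlapped over all arrays, but in runs B, D, E, F and 10-week every carrier array lay below every non-carrier array. With so few arrays per run, the groups of Hoxa5 and of Hoxa7, neither of them called, also did not overlap in 4 runs each. The share over all genes was not counted. The log2 change was -0.34 (SE 0.055, 95% confidence interval -0.45 to -0.23, adjusted p = 4.13e-04). On the linear scale the intensity fell by 20.9%. It was negative in 9 of 9 runs, from -0.87 in run B to -0.0077 in the run titled motorneuron.

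Hoxd4, a gene of hindbrain and cervical levels, changed less. Its intensity was 424 at the lowest, 579 at the median and 707 at the highest with carrier serum, against 489, 607 and 743 with non-carrier serum. The groups overlapped broadly. The log2 change was -0.092 (SE 0.023, 95% confidence interval -0.14 to -0.045, adjusted p = 0.0220), negative in 8 of 9 runs. The call was lost without run B (adjusted p = 0.0744), without run D (0.0897) and without run E (0.0532).

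**Figure D2:**
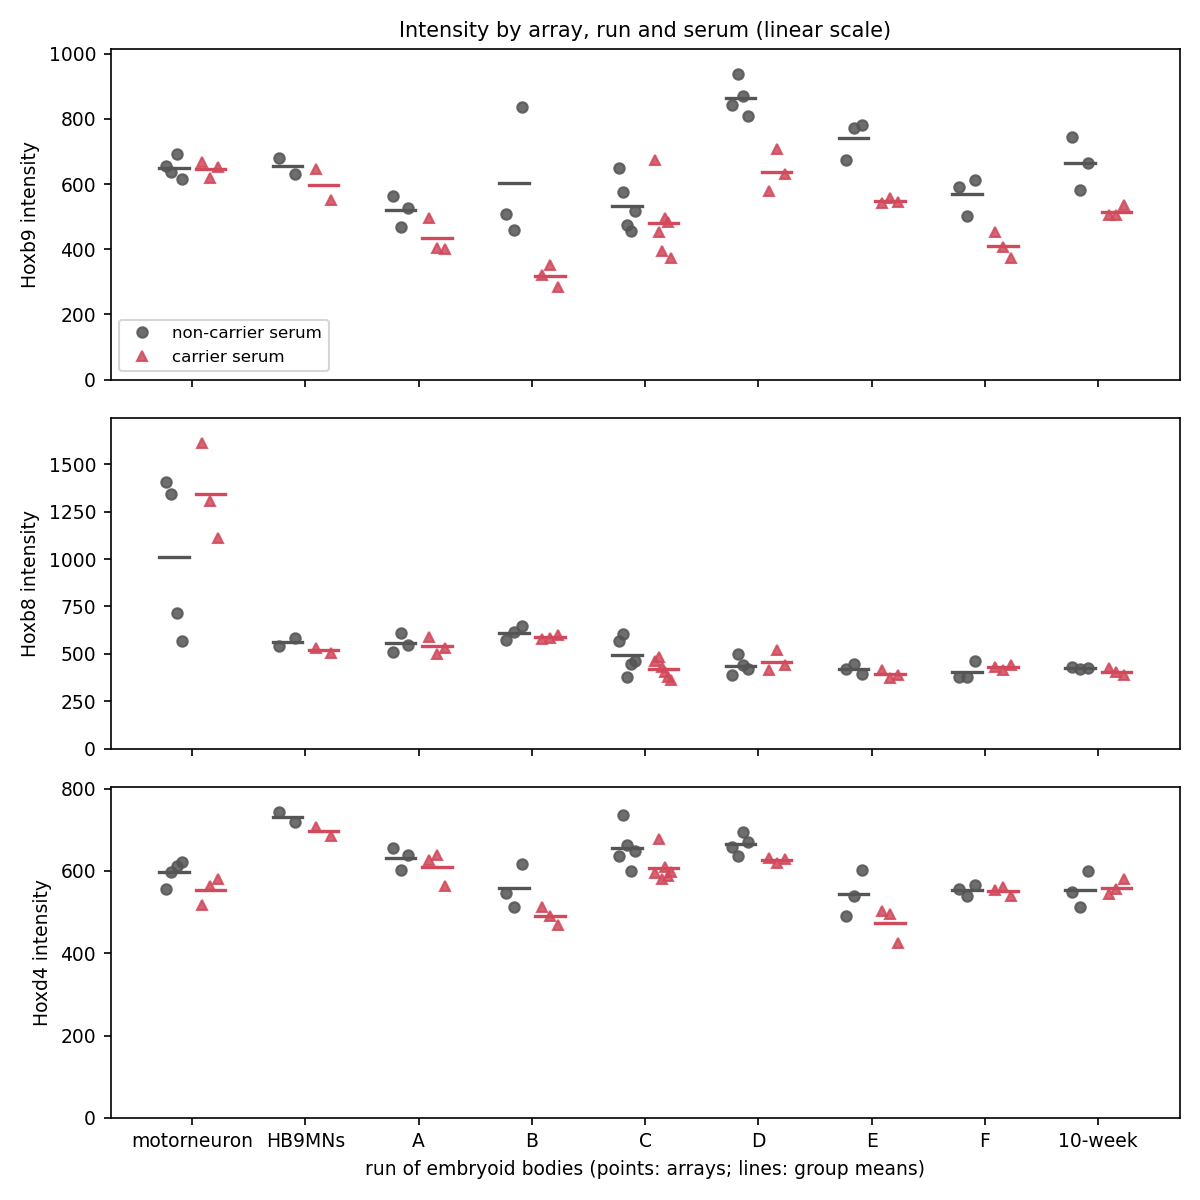
Linear intensity of Hoxb9, Hoxb8 and Hoxd4 on each array (grey circles, non-carrier serum; red triangles, carrier serum; lines, means) in the 9 runs. The carrier mean is the lower one in 9 of 9 runs for Hoxb9 and in 6 of 9 for Hoxb8, which is highest in the run titled motorneuron.

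The fall of Hoxb9 was larger than the change of the adjacent Hoxb8. The latter had a change of -0.0011 (95% confidence interval -0.12 to 0.12), and the difference of the 2 changes, fitted on the arrays' log2 ratios, was -0.34 (95% confidence interval -0.48 to -0.19). The change of Hoxb8 was negative in 6 of 9 runs and 0.50 in the run titled motorneuron. Without that run, a comparison chosen after seeing the data, it was -0.068 (95% confidence interval -0.15 to 0.011, adjusted p = 0.310), and the difference was -0.31 (95% confidence interval -0.44 to -0.19). Hoxb13, the next gene on the other side, had -0.0052, Hoxc9 -0.043, Hoxd9 0.019 and Hoxa9 0.023, all 4 at mean intensities in the olfactory range. For Hoxd4 against the adjacent Hoxd3 the difference was -0.058 (95% confidence interval -0.12 to 0.0039), which includes 0.

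At an unadjusted p under 0.05, 10 Hox genes were lower with carrier serum, against 8.68% of all genes, and 1 was higher, against 12.0% of all genes. The 10 genes were Hoxb9 and Hoxd4 together with 8 that missed the adjusted threshold, and all were genes above the olfactory mark. Hoxb6 and Hoxa3 missed it narrowly, with log2 changes of -0.084 and -0.083 and adjusted p of 0.0528 and 0.0546. Hoxb2, Hoxb3, Hoxb4 and Hoxb5, genes of hindbrain and cervical levels, had changes of -0.11, -0.044, -0.073 and -0.094 with adjusted p of 0.10, 0.226, 0.120 and 0.113. Hoxc4, also a cervical gene, had -0.088 with an adjusted p of 0.0985. The 1 higher gene was Hoxa11, a limb and caudal gene within the olfactory range, with 0.13 and an adjusted p of 0.123. Counted by runs, 2 of 39 Hox genes, Hoxb6 and Hoxb9, had lower means with carrier serum in all 9 runs, as had 1.11% of all genes.

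**Figure D3:**
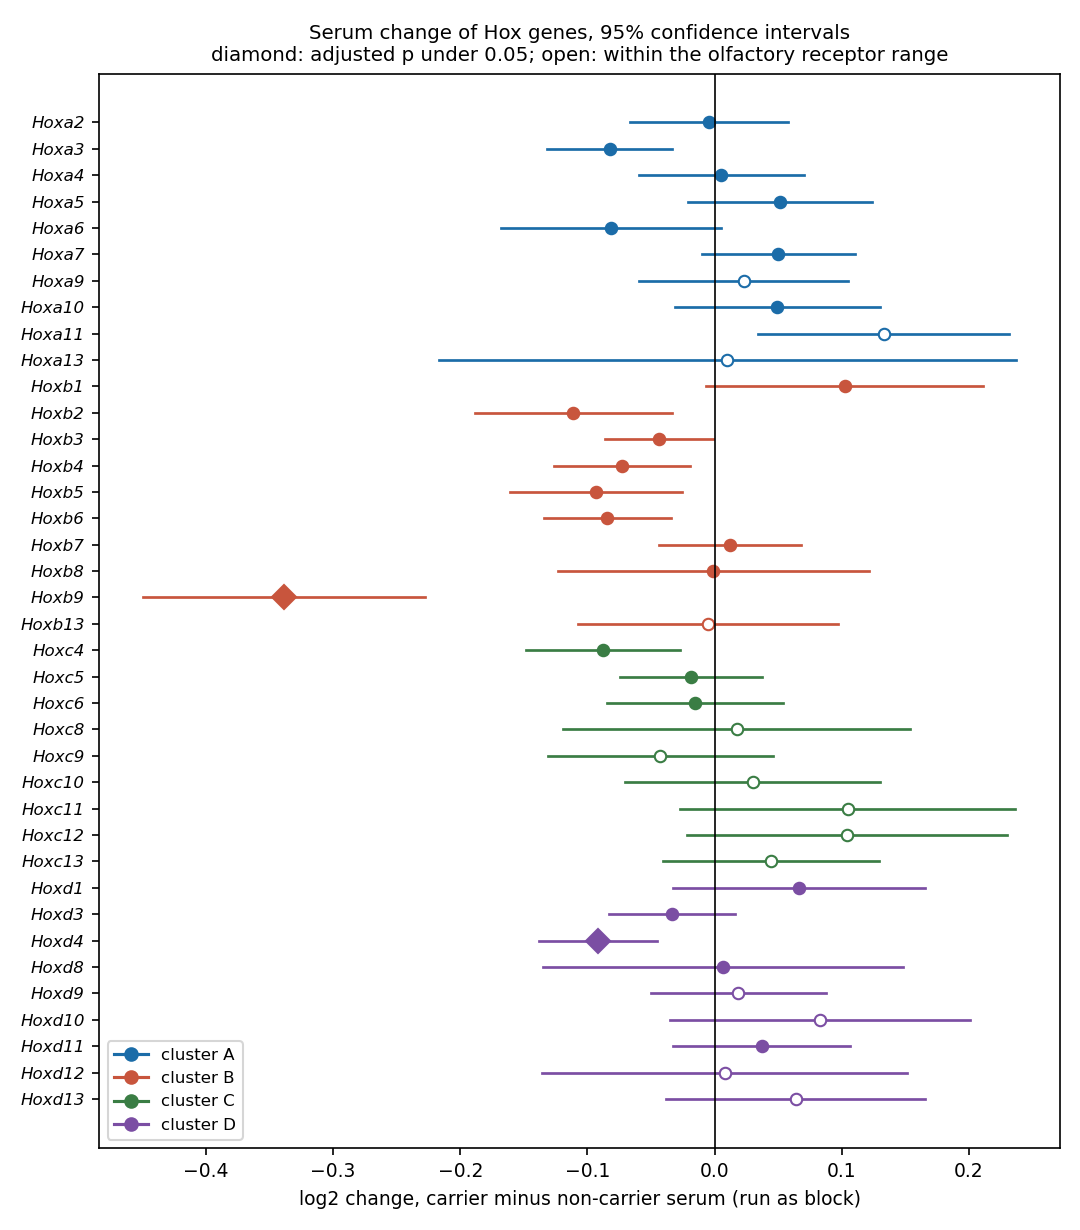
Log2 change with carrier serum (points) and its 95% confidence interval for 38 of the 39 Hox genes, ordered by cluster and number; diamonds pass the adjusted p and open symbols lie within the olfactory receptor range. Hoxb9 at -0.34 lies apart, and 8 of the 10 genes of cluster B are left of 0.

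Described by cluster, 8 of the 10 genes of cluster B had negative changes, out of 18 such Hox genes in all. The median of cluster B was -0.058, whereas the medians were 0.010 in A, 0.017 in C and 0.019 in D. By number, the median was -0.039 for paralogues 1 to 3 (6 of 8 lower), -0.073 for 4 and 5 (5 of 7 lower), 0.0028 for 6 to 8 and 0.047 for 10 to 13 (11 of 12 higher). After quantile normalization the median of cluster B was -0.054, those of paralogues 1 to 3 and of 4 and 5 were -0.026 and -0.057, but the medians of clusters C and D turned to -0.029 and -0.021, that of 6 to 8 to -0.029, and 6 of 12 genes numbered 10 to 13 were higher. With each array's olfactory receptor median as a covariate, chosen after seeing the data, clusters C and D had -0.020 and -0.025 and 6 to 8 had -0.022. Centring arrays on their medians turned that of 6 to 8 to -0.0045. With 4 motor neuron lineage genes (Olig2, Mnx1, Isl1, Lhx3) beside the run, the median of cluster B was -0.025, those of paralogues 1 to 3 and of 4 and 5 were -0.017 and -0.020, that of 6 to 8 was 0.044, and 0 of 12 genes numbered 10 to 13 were lower. Clusters A, C and D had 0.064, 0.11 and 0.043 in that fit. The median over all genes was 0.016. Most of the genes numbered 10 to 13 were dim, and the part of low intensity in their positive values was not tested. Hoxa10 and Hoxd11, with mean log2 intensities of 6.49 and 6.32 only slightly above the olfactory mark of 6.31, had changes of 0.049 and 0.037. Both 95% confidence intervals included 0. The 6530 genes at or below the olfactory mark had a median change of 0.056 with 14.5% lower, and the olfactory receptors themselves a median of 0.060 with 818 of 1021 higher. The 13083 genes above the mark had a median of -0.0011 with 51.1% lower, and the 25 Hox genes above it a median of -0.019 with 64.0% lower.

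The neuronal markers Slc5a7, Snap25 and Stmn2 rose with carrier serum, and they are given because the cultures are mixed. Slc5a7, the choline transporter of cholinergic neurons, changed by 0.15 (adjusted p = 0.0410), Snap25, a synaptic vesicle fusion protein, by 0.074 (0.0166) and Stmn2, a regulator of neuronal microtubules, by 0.061 (0.0400). They were 1 of 7 motor neuron and 2 of 5 neuronal markers, and the medians of these lists were -0.023 and 0.014. The motor neuron markers Lhx3, Lhx4, Mnx1 and Chat had changes of -0.086, -0.046, -0.035 and -0.023, whereas Isl1 and Isl2 had 0.053 and 0.094. The neuronal markers Tubb3 and Elavl3 had -0.028 and -0.011, and 3 of the 5 neuronal markers were higher. In these lists only Slc5a7, Snap25 and Stmn2 passed the adjusted p. Of 24 alternatives, the call held in 18 for Snap25, in 12 for Slc5a7 and in 11 for Stmn2, which missed it with the run as a random block (adjusted p = 0.0628). Summed over its list, the motor neuron marker intensity was 4320 to 5786 with carrier and 4295 to 5541 with non-carrier serum, and the neuronal one 17537 to 22491 and 17034 to 21710. No marker was at 0 on any array. With the 4 motor neuron lineage genes added to the fit that has the run as a block, the change of Hoxb9 was -0.36 (adjusted p = 9.40e-05) and that of Hoxd4 -0.062 (adjusted p = 0.0689).

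In the other marker lists no gene was called. Among the genes with the smallest p, the changes were -0.085 for Olig2 and -0.045 for Pax6 among progenitor markers, 0.11 for Nanog and 0.12 for Pou5f1 among pluripotency markers, and -0.089 for Lhx1 among interneuron markers. Glial Mbp had -0.055 and Aqp4 0.065, brachyury and Gata4 of mesoderm and endoderm 0.14 and 0.085, and endothelial Pecam1 and Cdh5 0.070 and 0.069. Their adjusted p lay between 0.0664 for Lhx1 and 0.361 for Cdh5. Lower were 3 of 6 progenitor, 3 of 10 interneuron and 3 of 6 glial markers. So were 2 of 9 pluripotency, 2 of 8 mesoderm and endoderm and 0 of 4 endothelial and blood markers. The interneuron list had a median of 0.025. Above the olfactory mark lay 3 of 9, 4 of 8 and 0 of 4 of the last 3 lists named. Over all genes at or below this mark the median change was 0.056, with 14.5% lower.

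Nearly all Hox genes differed between runs. In limma's moderated F test 38 of 39 Hox genes differed between runs, against 94.0% of all genes, the exception being Hoxa13 with an adjusted p of 0.0762. The share of a gene's variance that lay between runs was 23.0% (Hoxa13) to 94.7% (Hoxc6), with a median of 67.5% for Hox genes and 62.5% for all genes. The highest and lowest shares were 92.5% for Hoxa6 and 23.0% for Hoxa13 in cluster A, 84.4% for Hoxb5 and 49.0% for Hoxb9 in B, 94.7% for Hoxc6 and 37.7% for Hoxc11 in C, and 79.2% for Hoxd3 and 26.6% for Hoxd8 in D. By number, the median share was 76.7% for paralogues 1 to 3, 81.1% for 4 and 5, 73.7% for 6 to 8, 58.0% for 9 and 53.3% for 10 to 13. Over all genes above the olfactory mark the median share was 68.8%, and over those at or below it 46.2%. Of the 12 genes numbered 10 to 13, 2 lay above the mark. The part of intensity in the shares by number was not tested.

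Hoxc6 and Hoxa6, which mark brachial levels and, for Hoxc6, the forelimb motor neurons, had the highest shares of variance between runs. By the range of the run means on the log2 scale, Hoxa6 had 1.55, Hoxb8 1.42 and Hoxc6 1.41. The mean intensity of Hoxc6 was 218 in run C, 207 in HB9MNs, 204 in D, 204 in motorneuron, 183 in A, 125.7 in B, 104.4 in E, 101.3 in F and 81.8 in the 10-week run. The highest array of the 10-week run, at 87.2, was below the lowest array of run C, at 170. Hoxa6 had 758 in run A, 660 in D, 596 in C, 593 in HB9MNs and 519 in B, but 322 in F, 316 in E, 285 in motorneuron and 258 in the 10-week run. Both genes were thus low in runs E, F and 10-week, while the run titled motorneuron was high for Hoxc6 and low for Hoxa6. Summed progenitor marker intensity averaged 3559 in run F and 3641 in the 10-week run. It was 3234 in run E, within the 2547 to 3283 of the other runs, and 3281 in run D, where both genes were high. Its part in the Hox levels was not tested.

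The run titled motorneuron was above the average of the runs in every number group. The median log2 deviation was 0.50 for paralogues 1 to 3, 0.21 for 4 and 5, 0.25 for 6 to 8, 0.43 for 9 and 0.43 for 10 to 13. Over all genes the median deviation of this run was 0.16, so the whole array was shifted upwards as well. Hoxb8 had a mean intensity of 1152 there, with single arrays from 570 to 1613, and 407 to 600 as the mean of the other runs. Hoxa3 had 422 in this run and 418 in HB9MNs, above the 211 to 298 of the other 7 runs. Hoxb5 had 1257 there and 603 to 930 elsewhere. Hoxc5 was high in HB9MNs with 1744 and motorneuron with 1634 and lowest in F with 828.

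The dim genes moved with the run as well. In the run titled motorneuron the median log2 deviation from the average of the runs was 0.42 over the 14 Hox genes within the olfactory range, 13 of which were above average, and 0.28 over the olfactory receptors. In run E it was -0.29 over the same 14 Hox genes, and 0.0086 over the olfactory receptors. For the 25 other Hox genes it was 0.29 in motorneuron and -0.25 in run E. With both of these runs left out, a setting chosen after seeing the data, the change of Hoxb9 kept its call, and Hoxd4 had an adjusted p of 0.0790.

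**Figure D4:**
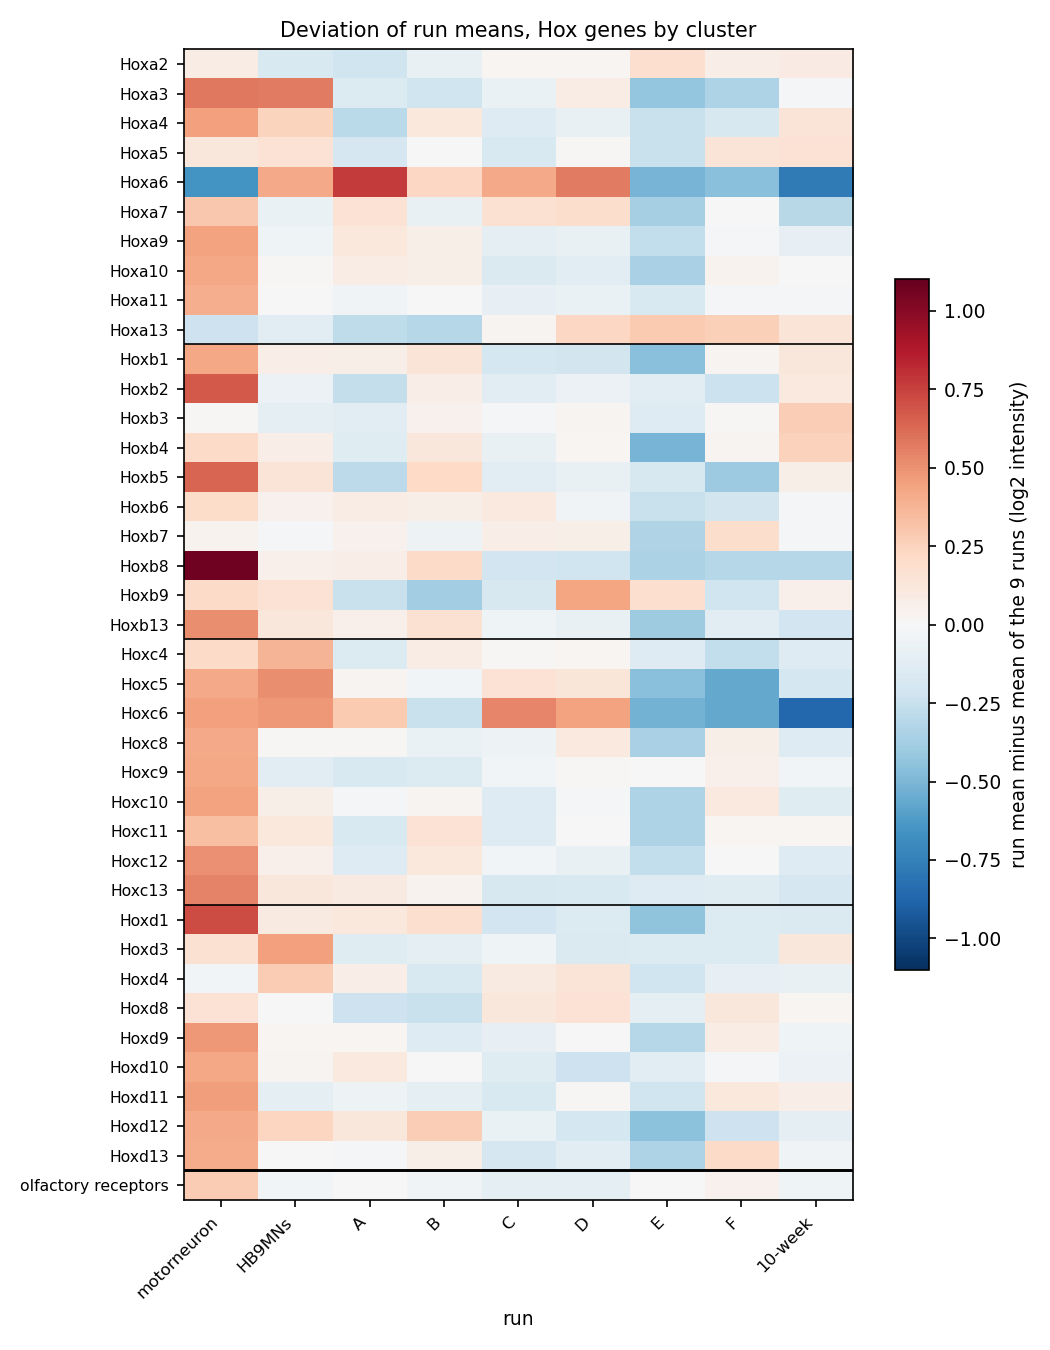
Deviation of the mean log2 intensity of each run from the average of the 9 runs, for 38 of the 39 Hox genes by cluster and for the median olfactory receptor gene (bottom row). Hoxc6 and Hoxa6 are blue in runs E, F and 10-week, and Hoxb8 has its extreme of 1.07 in the run titled motorneuron.

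No Hox gene passed the test of a serum change that differs between runs. In the test of the serum by run terms 0 of 39 Hox genes passed, against 0.127% of all genes by limma, and 8 had an unadjusted p under 0.05 (1557 of 19613 over all genes). For Hoxb9, with run changes from -0.87 to -0.0077, the unadjusted p was 0.0122 and limma's adjusted p 0.468, so a difference between runs was neither called nor shown to be absent.

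Across the 59 arrays, after the mean of each run and serum had been subtracted, the genes outside the clusters most like Hoxb9 by Pearson's r were Slc7a1 (0.81), a cationic amino acid transporter, Sesn2 (0.81), a stress-induced sestrin, Atxn2l (0.81), a relative of ataxin-2, Pycr1 (0.78), an enzyme of proline synthesis, and Ankrd11 (0.77), a chromatin regulator. These arrays share runs, RNA handling and normalization. Without the 2 arrays farthest from the median of Hoxb9 the values were 0.78, 0.79, 0.76, 0.72 and 0.62, and Spearman's rho over all arrays was 0.81, 0.78, 0.74, 0.72 and 0.60. All 5 were also lower with carrier serum, by -0.35, -0.25, -0.12, -0.24 and -0.10. Among Hox genes Hoxb4 had the highest Pearson's r with Hoxb9, 0.50, which was 0.38 without the 2 farthest arrays. By Spearman's rho Hoxb4 had 0.35 and Hoxd4 0.38. Hoxb8 had a Pearson's r of 0.27.

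Among the 25 Hox genes above the olfactory mark, residual correlations were weak. Their median was 0.14 over 77 pairs of the same cluster, 0.24 over 21 pairs with the same number in other clusters and 0.073 over the 202 other pairs. Over the 9 run means the medians were 0.37, 0.56 and 0.38. Closest over run means were Hoxa10 with Hoxb1 (0.97), Hoxb8 with Hoxd1 (0.96) and Hoxa10 with Hoxd1 (0.94), and most opposed were Hoxa2 and Hoxa6 (-0.78).

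Genes that act with or on the Hox clusters were examined as lists. Over 8 lists of such genes 3 members passed the serum test, 1 lower and 2 higher, which was 2.59% of the distinct genes measured, beside 1.65% lower and 0.683% higher over the whole table. The median change was 0.0020, against 0.016 over all genes. The higher genes were Calcoco1 (0.073, SE 0.018, adjusted p = 0.0169) and Cbx5 (0.063, SE 0.018, adjusted p = 0.0491), which neighbour cluster C. They were 2 of 15 genes flanking the clusters, whose median was 0.010. Cbx5 encodes a heterochromatin protein. Its call held in 12 of 24 alternatives and was lost with the run as a random block (adjusted p = 0.0548), and that of Calcoco1 held in 18.

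No gene was called among the Hox cofactors (0 of 8, 1 at an unadjusted p under 0.05), the retinoic acid pathway (0 of 19, 5 unadjusted), upstream regulators (0 of 14, 4 unadjusted), trithorax genes and H3K27 demethylases (0 of 13, 1 unadjusted), column and pool genes (0 of 18, 6 unadjusted) or hindbrain genes (0 of 10, 1 unadjusted) by limma. Over all genes, 8.68% were lower and 12.0% higher at an unadjusted p under 0.05. The smallest p among cofactors belonged to Pknox1 at -0.077 (adjusted p = 0.0599) and Meis1 at 0.039 (0.288). In the retinoic acid pathway they belonged to Crabp1, a binding protein, at -0.081 (0.140) and Cyp26b1, which degrades retinoic acid, at -0.16 (0.145). Among regulators brachyury had 0.14 (0.0992), and the smallest p among trithorax genes belonged to Kdm6b, an H3K27 demethylase, at -0.061 (0.202) and Men1 at -0.045 (0.327). For column and pool genes Unc5c had 0.098 (0.0624) and Lhx1, the factor of lateral motor neurons to dorsal limb muscle, -0.089 (0.0664), and for hindbrain genes En2 had 0.078 (0.328).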

How the data were processed

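RNA of embryoid bodies was measured on Affymetrix mouse exon arrays, 59 in all. The deposited intensities were made by the authors with RMA in the aroma.affymetrix package from co-normalized arrays, the value of a gene being the mean of its exons. Outlier arrays had been removed before deposit, and the authors' later correction by 4 motor neuron genes was not repeated. Those genes were used as covariates, in place of or beside the run, as alternatives. The number of arrays limits precision. Values are on a linear scale, and log2 was taken with a pseudocount of 0 and no filter.

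Groups came from the labels. The serum change was fitted for all 19613 genes with limma 3.58.1 in R 4.3.3 (lmFit, eBayes, two-sided) with the run as a block. P-values were adjusted by Benjamini-Hochberg across the whole table, and 0.05 was the threshold. Moderated F tests covered the run and the serum by run terms. The procedure was tested on simulated data. Genes named are those past the adjusted or an unadjusted p of 0.05, paralogue group 9, the extremes of variance by run in each cluster, called genes or else the 2 smallest p of each list, and the 5 genes most like Hoxb9. Others named for their run means, levels, position or pair correlations were chosen after their values were seen. The Hox genes and the gene lists were chosen with earlier results of these data known. List members without a matching symbol, such as Rarb, were not analysed here. Some genes are counted but not reported here by name. Alternatives covered the block, normalization, scale, filters, variance model, array weights and each run left out.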

Additional observations from a re-analysis of the deposited data

How the results depend on the processing

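The fall of Hoxb9 kept its direction in 24 of 24 alternatives and passed the threshold in 23, with log2 changes from -0.43 to -0.28. Without the run block it was -0.36 (unadjusted p = 3.40e-05, adjusted p = 0.334). The adjusted p of Hoxd4 ranged from 0.0098 to 0.995, with its direction kept in 24 and its call in 15. The fit on the 9-week arrays equals the one without the 10-week run and was counted once.

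The count of Hox genes lower with carrier serum, 2 as reported, was 0 without the run block. It was 4 with run C parted into 2 blocks, with arrays centred on their medians, with genes below the median or the olfactory percentile left out, and with trend and robust, and in each of these Hoxa3 and Hoxb6 joined Hoxb9 and Hoxd4. It was 1 with the 4 motor neuron genes in place of or beside the run, with quantile normalization and with the olfactory receptor median beside the run (chosen after seeing the data), and 6 with array weights. Equal title numbers did not pair the arrays (1 of 8 pairs correlated over 0.1), and with them as a replicate block the count was 5. With each run left out it was 1 to 4. The count of higher Hox genes, 0 as reported, was 8 with the 4 motor neuron genes beside the run, 2 with array weights and 0 to 2 with each run left out, the 2 being Hoxa5 and Hoxa11 without run C. Called genes of the lists numbered 3 as reported, 0 without the run block and 5 with quantile normalization. With genes below the median left out, 20 of the 20 Hox genes tested differed between runs.

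Among all 39 Hox genes, 11 turned sign with quantile normalization, 10 with the olfactory median, 5 with the 4 motor neuron genes beside the run and 4 without the run block, and 0 of these were Hoxb9 or Hoxd4. Of paralogue group 9, Hoxd9 and Hoxa9 turned. Hoxd9 had -0.000498 without the run block, -0.027 with quantile normalization and -0.035 with the olfactory median, and -0.0048 to 0.040 with each run left out. Hoxa9 had -0.020 with quantile normalization and -0.024 with the olfactory median. The cause was not tested. Over all genes, 323 were lower and 0.683% of the table higher as reported, against 2174 lower and 3952 higher with the 4 genes beside the run, and 1440 and 1363 with array weights.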
